A study of Homo sapiens with 18 samples.

Results

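Interferon-stimulated genes were followed as a set of 47 genes, chosen by name as well known members of the interferon response and found in the files by NCBI Gene ID. The choice was made with earlier results of these data known, so the counts of members below are descriptions. All 47 were among the 21662 gene IDs listed in the series, and all 47 passed the filter on low counts that left 14396 genes for testing. Interferons are secreted proteins that cells release when they sense viral or other foreign nucleic acid. At the cell surface, interferon alpha and beta bind the receptor of IFNAR1 and IFNAR2, whose kinases JAK1 and TYK2 phosphorylate STAT2. This joins IRF9 in a complex that binds the interferon-stimulated response element in promoters, whereas interferon gamma acts through a receptor of IFNGR1 and IFNGR2, JAK1 and JAK2, and its signal ends at the gamma-activated site. The genes so induced encode sensors of viral RNA, enzymes that degrade RNA or block translation, large GTPases that trap viral particles, the ubiquitin-like protein ISG15, and the factors STAT2, IRF1, IRF7 and IRF9 themselves. Many cell types, lymphocytes and tumour lines among them, keep a low level of these RNAs without added interferon.

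The RNA came from 3 established human cell lines labelled as NK/T cell lymphoma and as WT in genotype, namely SNT-8, SNK-10 and SNT-16. NK/T cell lymphoma is a tumour of natural killer or T cells that is associated with the Epstein-Barr virus; viral RNA was not analysed here. Each line was given DMSO, the solvent control, or icaritin, a prenylated flavonoid from Epimedium plants, for 12 h, and each of the 6 groups of line and treatment held 3 libraries, 18 in all. The dose of icaritin is not given in the sources used here. Each line is a single culture-grown tumour line, so a difference between lines is one between these lines, and nothing in the labels says whether the 3 libraries of a group came from separate cultures. The p-values then measure only the spread between these libraries, which may be technical. The comparisons were the level of each gene in SNK-10 against the mean of the 2 SNT lines under DMSO, the change with icaritin within each line, and the difference of that change between SNK-10 and the SNT lines.

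The authors' expected counts, the estimated number of fragments of each gene, summed to between 9526431 and 10100453 per library, and each library listed 16996 to 17461 genes. Levels are CPM, that is counts divided by a library's total and put on a common scale with TMM factors, and tests are from edgeR's quasi-likelihood fit with Benjamini-Hochberg adjustment over the 14396 genes, with a threshold of 0.05 on the adjusted p; SE is the standard error of a log2 difference. SNT-8 icaritin replicate 2 stood apart from the other replicates of its group, with a chi-square per gene of 5.96 and 8.18 against them. The main counts of members in the responses are given with and without it. Other pairs of replicates lay between 1.37 and 4.13. Among these, SNK-10 icaritin replicate 3 had 3.4 and 4.13 against its group, whose remaining pair had 1.53. Several single calls changed without SNK-10 icaritin replicate 3, as given below. The share of counts from RNR2, the mitochondrial large ribosomal RNA, went with icaritin from 1.5% to 1.55% up to 4.59% to 5.12% in SNK-10, from 1.19% to 1.33% up to 2.12% to 2.78% in SNT-8, and from 0.83% to 0.89% up to 1.65% to 1.77% in SNT-16.

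Markers of lymphoid cells were present in each line, although the T cell marker CD5 had means of at most 0.512 CPM in any group. The 5 T cell markers with values summed to 436 to 439 CPM in the SNK-10 DMSO libraries, 663 to 673 in SNT-8 and 635 to 648 in SNT-16. CD3E and CD247 were the closest between lines, CD3E at 301 CPM in SNK-10, 378 in SNT-8 and 367 in SNT-16, while CD3D was at 13.5, 114 and 98.9 and CD3G at 10.9, 58.5 and 68.2. The 8 NK cell markers summed to between 1624 and 1709 CPM in the SNK-10 DMSO libraries, 2534 to 2680 in SNT-8 and 2892 to 2977 in SNT-16, with no marker at 0; the granzyme gene GZMB was at 475 CPM in SNK-10, 1359 in SNT-8 and 1688 in SNT-16. GNLY, TYROBP and FCER1G had means of 81.1, 25.5 and 133 CPM in SNK-10 and at most 0.667 in the SNT lines under DMSO. The 4 markers of plasmacytoid dendritic cells, which release much interferon, summed to 134 to 143 CPM in SNK-10 and 54.0 to 59.4 in the SNT lines; IL3RA carried this with 87.8 against 1.18 and 1.10 CPM, and the defining markers CLEC4C and LILRA4 had a mean of at most 0.367 CPM in any group. The B cell, plasma cell and myeloid lists had lower sums in SNK-10 than in the SNT lines, carried by PAX5 (2.32 CPM in SNK-10, 14.02 in SNT-8 and 13.9 in SNT-16), MZB1 (76.0, 163.0 and 161) and ITGAX (37.6, 85.1 and 81.7). LYZ was at 11.1 to 13.96 CPM in the 3 lines and CSF1R at 2.81 to 13.04, whereas the defining markers MS4A1, CD79B, CD14 and CD163 had means of at most 0.181 CPM in any group. With icaritin MZB1 was at 39.5 CPM in SNK-10, 83.7 in SNT-8 and 88.8 in SNT-16. Whether these marker differences play a part in the values of the interferon-stimulated genes was not tested. In RNA from whole cultures, fewer cells with an RNA and less of that RNA per cell cannot be told apart.

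To show what sequence the members share beside their name, the RefSeq promoter windows of GRCh38.p14, 250 bases before to 50 bases after each start, were searched. Windows were matched for 35 of the 47 members. The core of the interferon-stimulated response element was searched as GAAA, any 2 bases, GAAA, on both strands, and the gamma-activated site as TTC, any 3 bases, GAA, which reads alike on both strands; the 2 patterns can overlap. The response element core was in 21 of the 35 windows (60.0%), against 3.65% of all 27305 promoter windows and 3.11% of the 11223 windows of genes tested. The gamma-activated site was in 9 of 35 windows (25.7%), against 7.88% of all windows and 6.49% of those of genes tested. The members' windows had a median GC content of 55.7% and 8 CpG, against 64.3% and 25 CpG in the windows of genes tested. A match is a description of the letters and not a site shown to be bound. The 6 windows below belong to the members on which the results turn, with the response element core in capitals on the strand of the gene: IFIT3 and ISG15, which were low in SNK-10, MX1 and OAS3, which were high in it, IFI44L, which fell most with icaritin, and GBP1, whose response changed sign between lines.
IFIT3 promoter, GRCh38.p14 chr10:89327747-89328046, plus strand: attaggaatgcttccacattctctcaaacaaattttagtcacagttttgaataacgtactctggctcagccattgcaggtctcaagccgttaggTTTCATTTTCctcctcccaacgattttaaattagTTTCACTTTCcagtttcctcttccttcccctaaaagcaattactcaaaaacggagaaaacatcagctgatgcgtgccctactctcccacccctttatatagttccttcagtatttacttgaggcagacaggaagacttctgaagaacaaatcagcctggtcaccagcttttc
ISG15 promoter, GRCh38.p14 chr1:1013247-1013546, plus strand: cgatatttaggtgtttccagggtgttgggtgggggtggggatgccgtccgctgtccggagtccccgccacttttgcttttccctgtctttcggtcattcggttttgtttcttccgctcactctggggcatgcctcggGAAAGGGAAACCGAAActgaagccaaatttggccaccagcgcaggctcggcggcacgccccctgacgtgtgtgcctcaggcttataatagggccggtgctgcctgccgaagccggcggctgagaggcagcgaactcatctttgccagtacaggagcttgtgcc
MX1 promoter, GRCh38.p14 chr21:41420308-41420607, plus strand: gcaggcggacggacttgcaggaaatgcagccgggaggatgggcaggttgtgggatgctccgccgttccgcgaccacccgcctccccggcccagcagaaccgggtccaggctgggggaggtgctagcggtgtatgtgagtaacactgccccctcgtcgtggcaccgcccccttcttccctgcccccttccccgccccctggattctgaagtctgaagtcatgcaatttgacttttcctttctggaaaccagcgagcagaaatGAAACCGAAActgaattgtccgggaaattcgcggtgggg
OAS3 promoter, GRCh38.p14 chr12:112938224-112938523, plus strand: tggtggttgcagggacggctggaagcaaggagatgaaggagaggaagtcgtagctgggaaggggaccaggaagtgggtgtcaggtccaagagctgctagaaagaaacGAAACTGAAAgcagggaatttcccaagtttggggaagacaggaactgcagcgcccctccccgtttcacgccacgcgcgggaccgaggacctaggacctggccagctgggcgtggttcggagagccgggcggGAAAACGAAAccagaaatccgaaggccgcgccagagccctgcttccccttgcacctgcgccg
IFI44L promoter, GRCh38.p14 chr1:78620198-78620497, plus strand: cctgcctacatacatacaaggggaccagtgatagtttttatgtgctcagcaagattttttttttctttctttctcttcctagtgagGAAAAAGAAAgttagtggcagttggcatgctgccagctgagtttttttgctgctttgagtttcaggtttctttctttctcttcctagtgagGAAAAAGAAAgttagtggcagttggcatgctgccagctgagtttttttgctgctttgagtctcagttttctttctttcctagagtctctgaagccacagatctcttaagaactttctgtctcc
GBP1 promoter, GRCh38.p14 chr1:89065159-89065458, minus strand: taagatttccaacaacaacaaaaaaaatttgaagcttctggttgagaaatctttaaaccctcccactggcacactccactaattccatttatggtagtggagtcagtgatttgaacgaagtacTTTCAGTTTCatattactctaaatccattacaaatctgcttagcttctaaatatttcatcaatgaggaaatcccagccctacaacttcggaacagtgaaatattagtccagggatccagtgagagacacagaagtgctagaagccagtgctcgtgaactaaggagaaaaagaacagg

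Counted from the transcription start, the cores began at -156 and -122 in IFIT3, at -113 and -107 in ISG15, at -143 and -12 in OAS3, at -164 and -73 in IFI44L, at -127 in GBP1 and 11 bases after the start in MX1. So members that were high in SNK-10 and members that were low in it both held the core. In 14 matched windows, among them those of RSAD2, OAS1, IFI16, SP110, XAF1 and IRF1, no core with this spacing was found. Closer spacings of GAAA, such as gaaacgaaa in the windows of OAS1, RSAD2 and XAF1, were not counted. The IRF1 window held a gamma-activated site at -124. These statements hold for these letters in this window only.

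**Figure D1:**
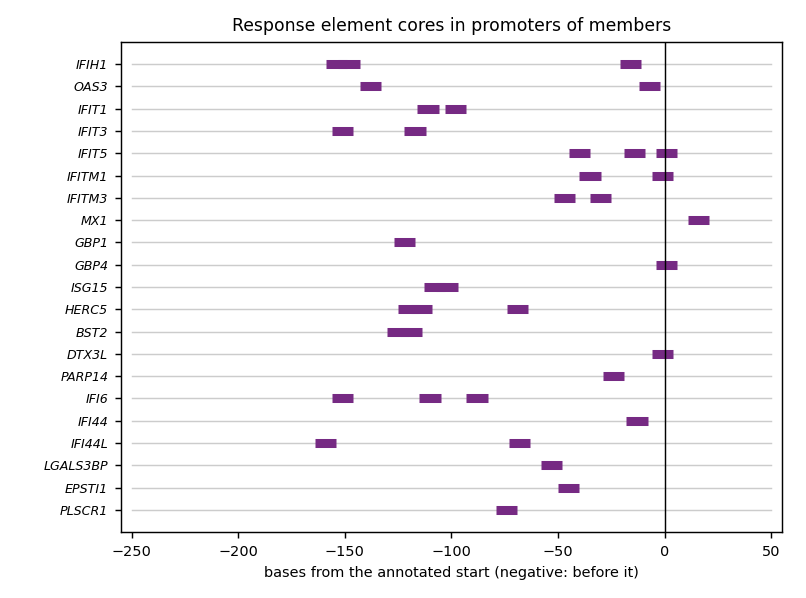
Positions of the response element core (GAAA, any 2 bases, GAAA, either strand) in the promoter windows of the 21 members that hold it, 1 member per line; the horizontal axis is the distance from the transcription start in bases, from 250 before to 50 after it. Most cores lay upstream of the start, and the core of MX1 lay just after it.

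Under DMSO most of the interferon-stimulated genes had less RNA in SNK-10 than in the SNT lines, while a small group, led by the antiviral GTPase MX1 and the RNA-sensing enzyme OAS3, had far more. Against the mean of SNT-8 and SNT-16, 39 of 47 members were lower in SNK-10 and 7 were higher, where 29.6% and 31.8% of all genes tested were. At least 2-fold lower were 22 members, beside 7.48% of all genes, and at least 2-fold higher were 5, beside 10.2%. The 3 SNK-10 libraries lay below all 6 SNT libraries for 33 members (all genes, 25.4%) and above all 6 for 6 members (all genes, 28.2%). The median log2 difference over the members was -0.99, against 0.00 over all genes, and the range was -3.16 to 7.01. Of the members, 46 passed the filter on low counts through libraries of SNK-10 and of the SNT lines alike; IFITM3 passed it through the SNT lines alone, and without it 38 were lower, 21 of them at least 2-fold.

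The same direction held against each SNT line, although the 2 comparisons share the SNK-10 DMSO libraries. Against SNT-8, 33 members were lower (all genes, 27.8%) and 9 higher (29.9%), with a median of -0.64. Against SNT-16, 41 were lower (27.7%) and 6 higher (30.1%), with a median of -1.26. The SNT lines also differed from each other: 37 members were lower in SNT-8 than in SNT-16 (all genes, 5.89%), 8 of them at least 2-fold (0.521%), with a median of -0.47 against -0.01 over all genes. The 1 member higher in SNT-8, MX1, was at least 2-fold so (all genes, 7.34% higher and 0.507% at least 2-fold higher), on few counts, and its call was lost without SNT-8 DMSO replicate 1 (adjusted p = 0.0901) or SNT-16 DMSO replicate 3 (0.0775). The order of the mean levels was SNK-10, then SNT-8, then SNT-16 from low to high for 33 of 47 members (70.2%), an order seen in 22.0% of all genes. IRF1 and SP110 were lowest in SNK-10 and highest in SNT-8; DHX58, HERC5, IFI6, SAMHD1, TRIM22 and XAF1 had SNK-10 between the SNT lines; GBP1, GBP2, LGALS3BP, MX1, MX2 and OAS3 were highest in SNK-10.

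**Figure D2:**
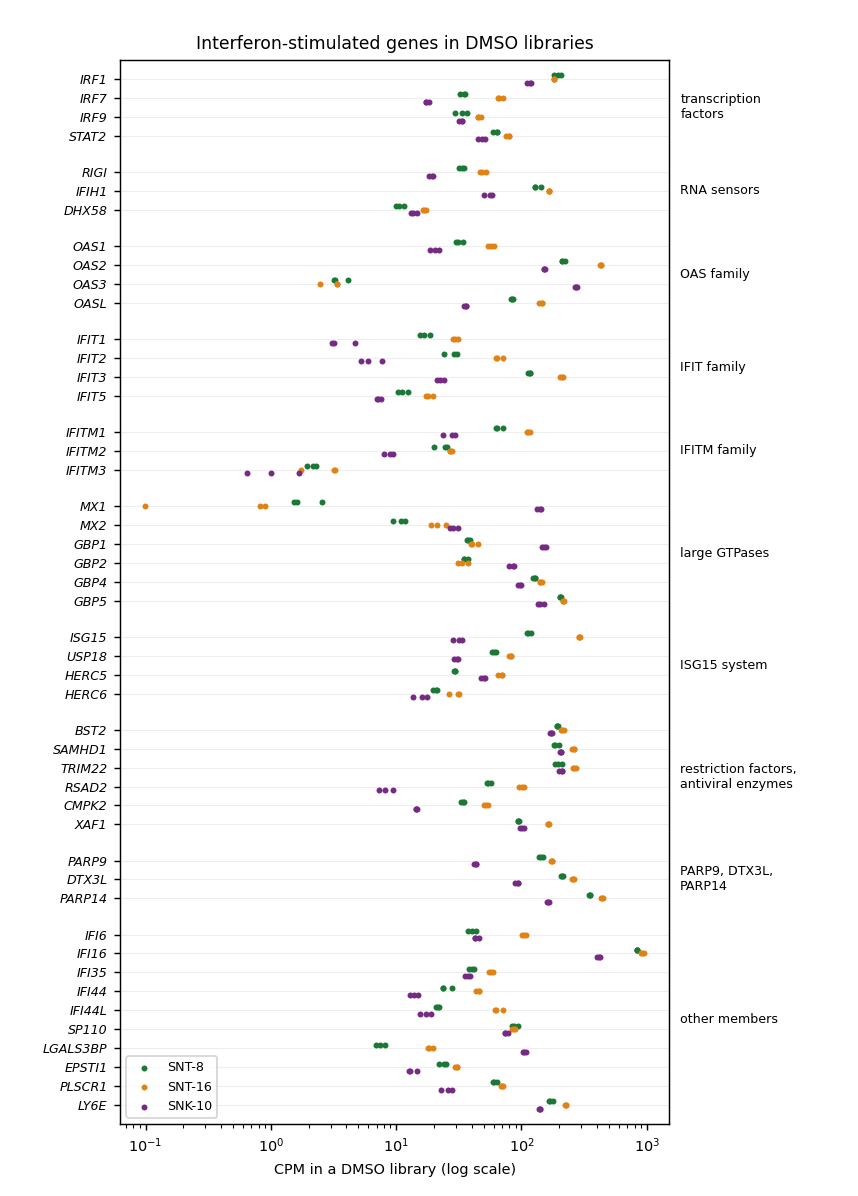
CPM on a log axis of the 47 interferon-stimulated genes in the 9 DMSO libraries, 1 point per library, grouped by role, with SNT-8 in green, SNT-16 in orange and SNK-10 in purple. The purple points lie left of both other colours for 33 genes and right of them for 6, with MX1 and OAS3 farthest to the right of the SNT lines.

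The ligands and the receptor chain give the setting. Of 22 interferon genes listed, 9 had any value and 2 passed the filter, IFNG and IFNL1; the others with a value, IFNB1 among them, had means of at most 0.196 CPM in any group. IFNG, which encodes interferon gamma, a cytokine that NK and T cells make, stood at 329, 356 and 325 CPM in the SNK-10 DMSO libraries, 176, 172 and 169 in SNT-8 and 116, 104 and 115 in SNT-16. It was thus highest in the line in which most of the 47 genes were low, with no overlap between lines and a log2 difference of 1.28 (SE 0.0408, adjusted p = 4.85e-27). Of 9 receptor and kinase genes, 2 were higher in SNK-10 (22.2%, all genes 31.8%) and 3 lower (33.3%, all genes 29.6%), shares near those of all genes. IFNGR2 passed the filter only through the SNT lines, with 3 to 17 counts in their DMSO libraries and 4 to 6 in those of SNK-10. Without it, 2 of 8 were higher and 3 lower. JAK1 and TYK2, the kinases of the receptor for interferon alpha and beta, were higher by 0.25 and 0.41 on the log2 scale. IFNAR1, IFNGR1 and IL10RB, a chain of the receptor for lambda interferons, were lower, at -0.32, -0.60 and -0.50.

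All 4 transcription factors among the members were lower in SNK-10, with a median of -0.62. IRF7, the factor that amplifies interferon alpha transcription, had 17.3, 17.4 and 18.2 CPM in SNK-10 against 34.7, 35.3 and 32.4 in SNT-8 and 65.4, 71.6 and 65.6 in SNT-16, a log2 difference of -1.45 (SE 0.0822, adjusted p = 1.06e-18). IRF1, which interferon gamma induces, had 110.4, 116 and 119 CPM in SNK-10, 206, 196 and 183 in SNT-8 and 183, 181 and 180.4 in SNT-16 (log2 -0.71, adjusted p = 7.98e-17). The SNK-10 libraries lay below all SNT libraries for both genes. STAT2 and IRF9, which bind the response element together, differed by -0.54 and -0.24, and IRF9 did not differ past the threshold between SNK-10 and SNT-8 (-0.01, adjusted p = 0.938).

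Among the 3 cytoplasmic sensors of viral RNA, RIGI (log2 -1.07) and IFIH1, the gene of MDA5 (-1.44), were lower in SNK-10. IFIH1 had means of 54.9 ± 4.41 CPM (SD, n = 3) in SNK-10, 134 ± 8.61 in SNT-8 and 166 ± 0.423 in SNT-16. DHX58, which encodes the regulator LGP2, lay between the SNT lines and its log2 difference of 0.04 had an adjusted p of 0.719.

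The OAS genes encode enzymes that make a short oligoadenylate in the presence of viral RNA. OAS1, OAS3 and OAS2 are neighbours on chromosome 12, yet they did not share a direction. OAS3 had 279, 272 and 267 CPM in the SNK-10 libraries, 4.15, 3.24 and 3.20 in SNT-8 and 3.36, 3.37 and 2.48 in SNT-16, from 2528 to 2648 counts in a SNK-10 library and 25 to 41 in an SNT library. The gap between the lines was far wider than the spread of any of them, and the log2 difference was 6.37 (SE 0.083, adjusted p = 3e-35), a level 82.6-fold higher. On either side of it, OAS1 was lower in SNK-10, at 20.5, 18.7 and 21.9 CPM against 29.7, 30.9 and 34.2 in SNT-8 and 56.8, 60.2 and 54.4 in SNT-16 (log2 -1.06, adjusted p = 4.67e-13). OAS2 was also lower, at 152 ± 0.848 CPM (SD, n = 3) against 214 ± 7.66 and 429 ± 7.53 (-1.0). OASL, a member that lacks the enzyme activity, was lower by more (-1.62).

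The IFIT family, whose proteins bind foreign RNA ends and hold back their translation, had the lowest median of the role groups in SNK-10: all 4 members were lower, and the median log2 difference was -2.70. IFIT3 stood at 22.5, 23.9 and 21.3 CPM in SNK-10, 117, 112 and 116 in SNT-8 and 213, 202 and 212 in SNT-16. No libraries of different lines overlapped, and the SNK-10 level was 19.6% of that in SNT-8 and 10.8% of that in SNT-16 (log2 difference from both -2.78, SE 0.0676, adjusted p = 5.94e-31). IFIT2 stood at 7.68, 5.25 and 5.92 CPM in SNK-10, 30.8, 29.2 and 24.2 in SNT-8 and 71.4, 64.2 and 62.4 in SNT-16 (-2.77, SE 0.105, adjusted p = 1.65e-24). IFIT1 stood at 3.07, 4.66 and 3.19 CPM in SNK-10, at 18.7, 15.6 and 16.6 in SNT-8 and at 31.2, 29.7 and 28.4 in SNT-16 (-2.63, SE 0.13, adjusted p = 1.05e-20). In each of them the 3 lines were separate. IFIT5, a paralog in the same cluster on chromosome 10, was lower by less (-0.99). These genes overlap LIPA in the annotation, whose mean count was 539, and the strand setting of the counting is not given in the sources used here, so reads of the overlapping parts cannot be told apart.

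The 3 IFITM genes, which encode membrane proteins that block the fusion of viruses with the cell, were lower in SNK-10 with a median of -1.52. IFITM1 had 28.1, 23.5 and 29.5 CPM in SNK-10, 70.9, 63.2 and 62.8 in SNT-8 and 117, 110.4 and 113 in SNT-16, a log2 difference of -1.67 (SE 0.0697, adjusted p = 3.89e-23). IFITM2 differed by -1.52, and IFITM3, at means of only 1.11 to 2.71 CPM in the 3 lines, by -1.15. The 3 genes are neighbours of similar sequence, and how the authors' counting split any shared reads is not known, so the values of single IFITM genes are uncertain.

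The large GTPases were the role group with most members high in SNK-10: 4 of 6 were higher and 2 lower, with a median of 1.09. MX1, whose protein forms rings around the nucleoproteins of influenza and other viruses, had 141, 133 and 142 CPM in the SNK-10 libraries. In SNT-8 it had 2.55, 1.52 and 1.60 CPM and in SNT-16 0.816, 0.897 and 0.0990, which are 15 to 25 and 1 to 9 counts per library, against 1270 to 1347 in SNK-10. MX1 was thus near 0 in both SNT lines, and the gap to SNK-10 gave a log2 difference of 7.01 (SE 0.125, adjusted p = 1.27e-26). Its neighbour on chromosome 21, MX2, a restriction factor of HIV, differed far less, with 28.5, 30.98 and 26.9 CPM in SNK-10, 9.39, 11.8 and 10.9 in SNT-8 and 24.98, 18.9 and 21.1 in SNT-16 (0.92, adjusted p = 1.76e-11). The guanylate-binding proteins attack the vacuoles of intracellular microbes and are classic targets of interferon gamma. GBP1 had 157, 145 and 152 CPM in SNK-10, 36.5, 37.1 and 38.5 in SNT-8 and 44.7, 39.96 and 39.4 in SNT-16, and the log2 difference was 1.94 (SE 0.0567, adjusted p = 4.34e-28). GBP2 was likewise higher (1.27), while GBP4 (-0.47) and GBP5 (-0.56) of the same cluster on chromosome 1 were lower.

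ISG15 is a ubiquitin-like protein that HERC5 attaches to newly made proteins and USP18 removes. ISG15 had 28.3, 31.8 and 33.6 CPM in SNK-10, 110.1, 112 and 120.03 in SNT-8 and 293, 286 and 286 in SNT-16. The 3 lines did not overlap, and SNK-10 held 10.8% of the SNT-16 level and 27.4% of the SNT-8 level (log2 difference from both -2.54, SE 0.0642, adjusted p = 5.17e-30). USP18, which also shuts off the receptor of interferon alpha and beta, differed by -1.21 on the log2 scale and HERC6 differed by -0.65. HERC5 lay between the SNT lines, above SNT-8 (0.76) and below SNT-16 (-0.46), so its call of 0.15 against their mean (adjusted p = 0.0324) describes no shared direction. It was lost under 7 of 28 alternative settings, among them without SNT-8 DMSO replicate 3 (adjusted p = 0.0562), SNK-10 DMSO replicate 1 (0.0939), SNK-10 DMSO replicate 3 (0.131) or SNT-16 DMSO replicate 2 (0.0705).

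All 6 restriction factors and antiviral enzymes were lower in SNK-10. RSAD2, the gene of viperin, which makes a chain-terminating nucleotide, had 8.09, 9.37 and 7.27 CPM in SNK-10, 56.9, 54.02 and 52.6 in SNT-8 and 101, 105 and 95.5 in SNT-16. Among the members it had the lowest SNK-10 level in relation to the SNT lines, with a log2 difference of -3.16 (SE 0.0813, adjusted p = 3.01e-30). CMPK2, the adjacent nucleotide kinase gene that overlaps it in the annotation, differed by -1.54. The others stood much closer between the lines: XAF1, a pro-apoptotic gene, at -0.31, BST2, the tetherin that holds virions to the cell, at -0.23, TRIM22, a ubiquitin ligase, at -0.14, and SAMHD1, which hydrolyses deoxynucleotides, at -0.11. The SNK-10 libraries of XAF1 and SAMHD1 lay between those of SNT-8 and SNT-16 without overlap, and those of TRIM22 overlapped with SNT-8. SAMHD1 was above SNT-8 (0.12) and below SNT-16 (-0.33). Its call against SNT-8 was lost without SNT-8 DMSO replicate 2 (adjusted p = 0.154) or 3 (0.0833), or without SNK-10 DMSO replicate 1 (0.079) or 3 (0.0583). Upper-quartile factors (0.0696) and no filter on low counts (0.0623) lost it too. The calls against the mean of the SNT lines were lost for SAMHD1 without SNT-8 DMSO replicate 1 (adjusted p = 0.0657), SNK-10 DMSO replicate 2 (0.0842) or SNK-10 DMSO replicate 3 (0.051), and for TRIM22 without SNT-8 DMSO replicate 1 (adjusted p = 0.0686), SNK-10 DMSO replicate 2 (0.051), SNK-10 DMSO replicate 3 (0.12) or SNT-16 DMSO replicate 2 (0.0521). SAMHD1 overlaps TLDC2 in the annotation.

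PARP9, DTX3L and PARP14, which act in ADP-ribosylation and ubiquitination and lie side by side on chromosome 3, were all lower in SNK-10. PARP9 stood at 43.5, 42.99 and 41.5 CPM in SNK-10, 137, 149.7 and 143 in SNT-8 and 176, 172 and 175 in SNT-16 (log2 -1.89, SE 0.051, adjusted p = 1.71e-29). DTX3L, which overlaps PARP9 in the annotation, differed by -1.33 and PARP14 by -1.27. Of the other 10 members, 9 were lower. The DNA sensor IFI16 had 423, 403 and 414 CPM in SNK-10, 832, 833 and 833 in SNT-8 and 955, 923 and 907 in SNT-16 (-1.09, adjusted p = 4.58e-24). IFI16 overlaps AIM2 in the annotation. The scramblase PLSCR1 (-1.35), IFI44 (-1.27), IFI44L (-1.12) and EPSTI1 (-0.99) were lower too. IFI44L stood much closer to SNT-8 than this value against both lines. Its call against SNT-8 was lost without SNT-8 DMSO replicate 1 (log2 -0.3, adjusted p = 0.078) or 2 (-0.32, 0.0598). It was also lost without SNK-10 DMSO replicate 1 (-0.31, 0.0635) or 3 (-0.24, 0.137). IFI6, a mitochondrial inhibitor of apoptosis (-0.57), LY6E, a surface protein that blocks coronavirus entry (-0.49), IFI35 (-0.36) and the nuclear body gene SP110 (-0.23) were lower by less. The exception was LGALS3BP, a secreted galectin-binding glycoprotein, with 106, 102 and 109 CPM in SNK-10 against 7.49, 6.89 and 8.21 in SNT-8 and 18.1, 19.8 and 18.02 in SNT-16 (3.15, SE 0.0596, adjusted p = 8.71e-35).

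Levels of different genes can be set side by side only per length, as FPKM. By mean FPKM under DMSO the most abundant members were IFI16 (298), BST2 (186), ISG15 (171) and LY6E (144) in SNT-8. In SNT-16 they were ISG15 (445), IFI16 (342), BST2 (208) and LY6E (194). SNK-10 led with BST2 (164), IFI16 (147) and LY6E (117), and ISG15 was at rank 8 of 47 there (46.4). MX1 was at rank 46 in SNT-8, 47 in SNT-16 and 9 in SNK-10, and OAS3 at rank 47, 46 and 12.

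By promoter window, the 21 members with the response element core had a median log2 difference of -1.12 between SNK-10 and the SNT lines, with 5 higher and 16 lower. All 14 members without it were lower, with a median of -0.68. The 12 members with no matched window had a median of -0.78, with 2 higher and 9 lower. The group without the core includes OAS1, RSAD2 and XAF1, whose windows held GAAA repeats at a closer spacing than the one searched. Whether these groups differ was not tested.

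Lists of pathway genes were counted in the same way under DMSO, where 31.8% of all genes tested were higher in SNK-10 and 29.6% lower. The sensing list also holds the member IFI16, and the list of negative regulators the member USP18. Both were lower in SNK-10 and are counted again here. Of 15 tested genes of nucleic acid sensing upstream of interferon, 6 were higher (40.0%) and 5 lower (33.3%), shares near those of all genes. IRF5, a factor downstream of Toll-like receptors, had 191, 176 and 194 CPM in SNK-10, 80.03, 80.6 and 75.2 in SNT-8 and 69.6, 77.2 and 72.98 in SNT-16 (log2 1.30, adjusted p = 5.64e-14). The DNA sensor CGAS was higher by 0.80, and its partner STING1 by 0.38. Of 12 negative regulators, 6 were lower (50%) and 2 higher (16.7%), SOCS1 and PTPN6. PTPN6 passed the filter on low counts only through SNK-10, with 133 to 150 counts per DMSO library there and at most 6 in an SNT DMSO library, so its call says little; without it 1 of 11 was higher. Among the lower ones were the RNA-editing enzyme ADAR (-0.61) and the repressor IRF2 (-0.42). Of 34 further interferon-stimulated genes, 22 were lower in SNK-10 (64.7%) and 8 higher (23.5%). The exonuclease ISG20 (-2.23) was among the lower ones. IFI27, at 14.3, 13.96 and 14.2 CPM in SNK-10, had 133 to 136 counts per DMSO library there and 4 to 10 in an SNT DMSO library; it passed the filter only through SNK-10, and without it 7 of 33 were higher.

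With icaritin the interferon-stimulated genes moved down on balance in both SNT lines and did not in SNK-10. In SNT-8, 24 of 47 members fell (all genes tested, 25.0%) and 7 rose (24.0%), with a median log2 change of -0.25 against 0.02 over all genes. In SNT-16, 29 fell (20.8%) and 8 rose (21.2%), with a median of -0.36 against 0.02. In SNK-10, 7 fell (24.0%) and 19 rose (24.4%), with a median of 0.03 against 0.01. Over the libraries left out in turn, the falls in SNK-10 ranged from 7 to 10 and the rises from 14 to 19. The changes were small: they ran from -1.49 to 0.69 in SNT-8, -1.74 to 0.61 in SNT-16 and -0.71 to 0.67 in SNK-10. IFI44L alone fell at least 2-fold in SNT-8 (all genes, 2.29%), and IFI44L, OAS1 and IRF7 did in SNT-16 (1.56%). Without SNT-8 icaritin replicate 2, 24 members fell and 8 rose in SNT-8. Each response shares its DMSO libraries with the comparison of levels above.

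**Figure D3:**
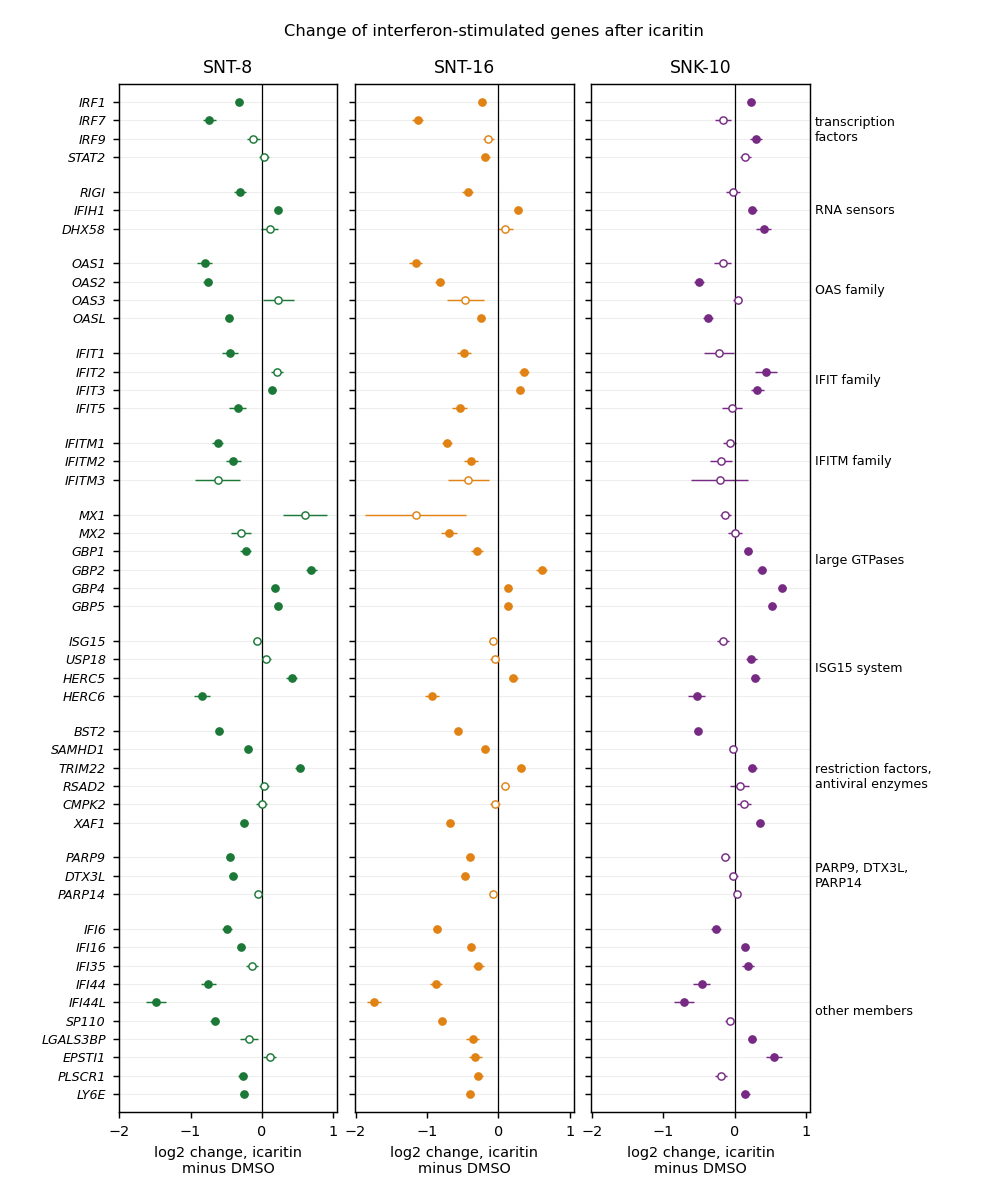
Log2 change with icaritin of the 47 interferon-stimulated genes in SNT-8, SNK-10 and SNT-16, 1 panel per line, with bars of 1 SE; filled points passed the threshold of 0.05 on the adjusted p and open points did not. In the SNT panels 24 and 29 filled points lie left of 0, and in the SNK-10 panel 7 do.

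Across the 3 lines the members fell into a few patterns. A fall in both SNT lines was seen for 24 members (51.1%, all genes 18.1%). Of these, 12 did not pass the threshold in SNK-10 (25.5%, all genes 3.42%), namely DTX3L, IFIT1, IFIT5, IFITM1, IFITM2, IRF7, OAS1, PARP9, PLSCR1, RIGI, SAMHD1 and SP110. PARP9 passed it in SNK-10 on both FPKM scales (-0.29 and -0.32, adjusted p = 0.000369 and 0.000267, against -0.13) and without SNK-10 icaritin replicate 3 (0.0381), PLSCR1 under 5 of 28 alternatives, and OAS1 without SNK-10 icaritin replicate 3 (0.0103). Another 7 fell in SNK-10 too (14.9%, all genes 14.3%), namely BST2, HERC6, IFI44, IFI44L, IFI6, OAS2 and OASL. The remaining 5 rose in SNK-10 (10.6%, all genes 0.361%), namely GBP1, IFI16, IRF1, LY6E and XAF1; they were 2 without SNK-10 DMSO replicate 2, 3 without SNK-10 icaritin replicate 3 and 3 in limma fits of log2 FPKM. A rise in all 3 lines was seen for 7 members, GBP2, GBP4, GBP5, HERC5, IFIH1, IFIT3 and TRIM22 (14.9%, all genes 13.0%), and for 4 without SNT-16 icaritin replicate 3 or with no filter on low counts. Without SNT-8 icaritin replicate 2, the counts were again 24 falls in both SNT lines, 7 in all 3 and 5 with a rise in SNK-10, and 6 rises in all 3 lines. In the main fit no threshold was passed in any line by 7 members, CMPK2, IFITM3, ISG15, MX1, OAS3, PARP14 and RSAD2 (14.9%, all genes 32.6%). MX1, OAS3 and RSAD2, with the 3 largest differences between lines under DMSO, are among them, while LGALS3BP and IFIT3, the next in size, each had a response past the threshold. MX1, on few counts, passed it in SNT-8 under 5 of 28 alternatives, DESeq2 among them (adjusted p = 0.042). It also passed in SNT-16 without DMSO replicate 3 (-1.66, adjusted p = 0.0345), again on few counts. In SNK-10 it passed with only the groups compared (-0.14, adjusted p = 0.0188). OAS3 passed in SNT-8 without icaritin replicate 2, the library that stood apart (0.52, adjusted p = 0.0303). ISG15 passed it in SNK-10 or SNT-16 under some alternatives, given below with its role group.

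Upstream in the pathway, IFNG fell in all 3 lines. It went from 176, 172 and 169 to 58.8, 57.8 and 54.3 CPM in SNT-8, from 116, 104 and 115 to 66.7, 66.3 and 72.3 in SNT-16 and from 329, 356 and 325 to 162, 161 and 167 in SNK-10. DMSO and icaritin libraries did not overlap in any line, and the log2 changes were -1.60 in SNT-8, -0.71 in SNT-16 and -1.04 in SNK-10. The change in SNT-8 was the deeper of the 2 SNT lines (difference of response -0.89, SE 0.0789, adjusted p = 1.38e-09), while SNK-10 against their mean gave 0.11 with an adjusted p of 0.266. IFNL1 had a log2 change of -1.20 in SNT-8 that passed the threshold, at means of 1.31 and 0.563 CPM; the call was lost without SNT-8 icaritin replicate 2. Of the 9 receptor and kinase genes, 5 rose in SNT-8 (55.6%, all genes 24.0%), 5 in SNT-16 (55.6%, all genes 21.2%) and 6 in SNK-10 (66.7%, all genes 24.4%). The others did not pass the threshold. JAK1 rose by 0.49, 0.45 and 0.61 in SNT-8, SNT-16 and SNK-10.

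The transcription factors among the members split between the lines: 2 of 4 fell in SNT-8, 3 of 4 fell in SNT-16, and 2 of 4 rose in SNK-10. IRF7 went from 34.7, 35.3 and 32.4 to 18.96, 18.96 and 23.4 CPM in SNT-8, from 65.4, 71.6 and 65.6 to 30.01, 31.5 and 31.2 in SNT-16, and from 17.3, 17.4 and 18.2 to 16.6, 18.1 and 12.6 in SNK-10. The SNT libraries separated by treatment and the log2 changes were -0.74 and -1.13 (SE 0.0795, adjusted p = 7.68e-15), while the SNK-10 value of -0.16 had an adjusted p of 0.236. IRF1 went from 206, 196 and 183 to 154, 163 and 151 CPM in SNT-8, from 183, 181 and 180.4 to 156, 153 and 154 in SNT-16 and from 110.4, 116 and 119 to 139.9, 140.1 and 125 in SNK-10. It fell in the SNT lines (-0.32 and -0.23) and rose in SNK-10 (0.23, SE 0.0532, adjusted p = 0.000416). IRF9 rose in SNK-10 (0.30) and gave -0.12 and -0.14 in SNT-8 and SNT-16, neither past the threshold; STAT2 fell in SNT-16 (log2 -0.18) and did not pass it in SNT-8 (0.03) or SNK-10 (0.15). The STAT2 call in SNT-16 was lost without SNT-16 DMSO replicate 1 (adjusted p = 0.0734), SNT-16 DMSO replicate 2 (0.0747) or SNT-16 icaritin replicate 2 (0.0698). Without SNK-10 icaritin replicate 3, STAT2 rose past the threshold in SNK-10 (0.24, adjusted p = 0.00494).

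The RNA sensors went different ways. IFIH1 rose in each line (0.22 in SNT-8, 0.28 in SNT-16 and 0.25 in SNK-10), RIGI fell in the SNT lines (-0.31 and -0.43) with -0.02 in SNK-10 (adjusted p = 0.905), and DHX58 rose in SNK-10 (0.41) with values of 0.11 and 0.10 in the SNT lines that did not pass. Among the OAS genes, OAS1 went from 29.7, 30.9 and 34.2 to 18.6, 16.1 and 19.9 CPM in SNT-8 and from 56.8, 60.2 and 54.4 to 23.1, 27.05 and 26.6 in SNT-16, log2 changes of -0.80 (SE 0.104, adjusted p = 4.7e-08) and -1.16 (SE 0.0917, adjusted p = 5.71e-13). In SNK-10 its libraries held 20.5, 18.7 and 21.9 with DMSO and 15.4, 16.5 and 22.6 with icaritin (-0.17, adjusted p = 0.237). The libraries were separate by treatment in both SNT lines. OAS2 (-0.76 in SNT-8, -0.82 in SNT-16 and -0.50 in SNK-10) and OASL (-0.46 in SNT-8, -0.24 in SNT-16 and -0.37 in SNK-10) fell in every line. In the main fit OAS3 passed the threshold in none of them (0.23 in SNT-8, -0.46 in SNT-16 and 0.04 in SNK-10). Without SNT-8 icaritin replicate 2 it passed in SNT-8 (0.52, adjusted p = 0.0303).

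Within the IFIT family the direction depended on the gene. IFIT3 rose in each line (0.14 in SNT-8, 0.30 in SNT-16 and 0.32 in SNK-10), although in SNT-8 its DMSO and icaritin libraries overlapped. That SNT-8 call was lost under 22 of 28 alternatives, and without SNT-8 icaritin replicate 2, the library that stood apart, its adjusted p was 0.723. IFIT2 went from 71.4, 64.2 and 62.4 to 81.9, 84.4 and 87.4 CPM in SNT-16 and from 7.68, 5.25 and 5.92 to 7.80, 8.93 and 8.88 in SNK-10, rises of 0.36 and 0.44, and in SNT-8 it gave 0.21 with an adjusted p of 0.0503. The SNK-10 call was lost without SNK-10 DMSO replicate 2 (adjusted p = 0.117), SNK-10 DMSO replicate 3 (0.0621), SNK-10 icaritin replicate 2 (0.0576) or SNK-10 icaritin replicate 3 (0.0538), and the SNT-8 value passed under 7 of 28 alternatives. IFIT1 fell in the SNT lines (-0.45 and -0.48), as did IFIT5 (-0.34 and -0.54); neither passed the threshold in SNK-10 (-0.22 and -0.04), and the IFIT5 call in SNT-8 was lost without SNT-8 DMSO replicate 1 (adjusted p = 0.1). IFITM1 fell in the SNT lines by 0.62 and 0.72 and IFITM2 by 0.40 and 0.38 on the log2 scale, with -0.07 and -0.19 in SNK-10, not past the threshold. IFITM3 passed it in no line.

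Of the 4 guanylate-binding proteins, 3 rose in all lines. GBP2 went from 34.6, 35.1 and 37.8 to 55.8, 63.8 and 53.8 CPM in SNT-8, from 37.3, 33.2 and 31.4 to 50.5, 53.7 and 50.8 in SNT-16 and from 86.9, 85.9 and 79.8 to 105, 104 and 120.4 in SNK-10. The treatments were separate in each line, with log2 changes of 0.69 in SNT-8, 0.61 in SNT-16 and 0.38 in SNK-10. GBP4 went from 94.1, 97.5 and 98.8 to 153, 152 and 158 CPM in SNK-10, a rise of 0.67 (SE 0.0498, adjusted p = 1.8e-14), and rose by 0.18 in SNT-8 and 0.14 in SNT-16. GBP5 went from 136, 149.9 and 141 to 202, 192 and 225 CPM in SNK-10 (0.53, SE 0.0546, adjusted p = 1.16e-10) and rose by 0.22 and 0.13 in SNT-8 and SNT-16. The SNT-16 rises were small: that of GBP5 was lost under 11 of 28 alternatives, with an adjusted p of 0.282 without SNT-16 icaritin replicate 2, and that of GBP4 without SNT-16 icaritin replicate 1 (adjusted p = 0.0588) or SNT-16 icaritin replicate 3 (0.0641). After icaritin the GBP4 means were 143 ± 7.50 (SD, n = 3) in SNT-8, 156 ± 4.47 in SNT-16 and 155 ± 3.43 in SNK-10. GBP1 fell in the SNT lines and rose in SNK-10, as described with the genes of opposite direction. MX1 did not pass the threshold in any line in the main fit and MX2 fell in SNT-16 (-0.69).

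In the ISG15 system, ISG15 itself passed the threshold in no line in the main fit, with 110.1, 112 and 120.03 CPM with DMSO and 99.99, 107 and 118 with icaritin in SNT-8. Its log2 changes were -0.07 in SNT-8, -0.08 in SNT-16 and -0.16 in SNK-10. In SNK-10 it passed without icaritin replicate 3 (-0.26, adjusted p = 0.0189) and in limma fits on both FPKM scales (-0.19 in each, adjusted p = 0.0409 and 0.0398). In SNT-16 it passed with only the groups compared (-0.08, adjusted p = 0.0424). The ligase HERC5 rose in each line; in SNT-8 it went from 29.4, 29.5 and 28.7 to 34.8, 44.1 and 38.4 CPM (0.42, SE 0.0762, adjusted p = 1.29e-05), with 0.21 in SNT-16 and 0.29 in SNK-10. Its neighbour on chromosome 4, HERC6, fell in each line. It went from 19.5, 20.9 and 21.3 to 12.1, 10.2 and 12.2 CPM in SNT-8, from 26.4, 31.4 and 31.4 to 14.7, 15.3 and 17.1 in SNT-16 and from 17.5, 13.7 and 16.1 to 10.1, 10.5 and 12.02 in SNK-10. These libraries did not overlap by treatment, and the log2 changes were -0.84 in SNT-8, -0.93 in SNT-16 and -0.53 in SNK-10. USP18 rose in SNK-10 (0.23, adjusted p = 0.0119), where its libraries overlapped and the call was lost without SNK-10 DMSO replicate 3 (adjusted p = 0.0537), SNK-10 icaritin replicate 1 (0.0565) or SNK-10 icaritin replicate 3 (0.0953), and gave 0.06 and -0.05 in the SNT lines.

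Of the restriction factors, BST2 fell in each line from 193, 196 and 193 to 129, 128 and 126 CPM in SNT-8, from 218, 209 and 206 to 131, 149.5 and 146 in SNT-16 and from 176, 171 and 169 to 118, 115 and 127 in SNK-10. The changes were -0.60 in SNT-8, -0.57 in SNT-16 and -0.52 in SNK-10, and the difference of response had an adjusted p of 0.546. TRIM22 rose in each line, from 210.4, 194 and 186 to 272, 327 and 253 CPM in SNT-8 and from 258, 272 and 262 to 326, 331 and 329 in SNT-16 (0.53 in SNT-8, 0.32 in SNT-16 and 0.25 in SNK-10). SAMHD1 fell slightly in the SNT lines (-0.19 and -0.18). RSAD2 and CMPK2 passed the threshold in no line, with changes between -0.05 and 0.13 over both genes. PARP9 and DTX3L fell in the SNT lines (PARP9 -0.45 and -0.40, DTX3L -0.40 and -0.47), while PARP14 beside them passed it in none (-0.06 in SNT-8, -0.07 in SNT-16 and 0.03 in SNK-10).

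Among the other members, IFI44L fell most in each line. This gene of unsettled biochemical function went from 22.1, 21.5 and 20.9 to 7.08, 5.22 and 10.6 CPM in SNT-8, from 71.3, 62.7 and 61.9 to 17.8, 21.1 and 19.6 in SNT-16 and from 17.3, 19.1 and 15.4 to 10.7, 10.97 and 9.98 in SNK-10. Each line's libraries were separate by treatment. The log2 changes were -1.49 (SE 0.14, adjusted p = 1.33e-10) in SNT-8, -1.74 (SE 0.103, adjusted p = 3.37e-15) in SNT-16 and -0.71 (SE 0.14, adjusted p = 8.1e-05) in SNK-10, the last of which left 61.2% of the DMSO level. Its neighbour IFI44 fell in each line (-0.75 in SNT-8, -0.87 in SNT-16 and -0.46 in SNK-10), as did IFI6 (-0.49 in SNT-8, -0.86 in SNT-16 and -0.26 in SNK-10). All 10 of these members fell in SNT-16 and 7 in SNT-8, whereas in SNK-10 3 fell and 5 rose. EPSTI1, named for its induction by epithelial-stromal contact, rose in SNK-10 from 12.7, 12.9 and 14.7 to 17.3, 20.5 and 21.05 CPM (0.55, SE 0.108, adjusted p = 4.96e-05), fell in SNT-16 (-0.32) and gave 0.11 in SNT-8. LGALS3BP (0.24) and IFI35 (0.19) rose in SNK-10 and fell in SNT-16 (-0.36 and -0.28). The rise of IFI35 was lost under 19 of 28 alternatives, with an adjusted p of 0.374 without SNK-10 icaritin replicate 2. PLSCR1 (-0.27 and -0.28) and SP110 (-0.66 and -0.79) fell in the SNT lines, with -0.19 and -0.07 in SNK-10, not past the threshold.

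The difference of response between lines was tested directly. In SNK-10 the response exceeded the mean response of the SNT lines for 22 of 47 members (all genes, 8.22%) and was below it for 1, GBP2 (all genes, 5.9%). The median difference was 0.32 on the log2 scale against 0.00 over all genes, within -0.27 to 0.90. By role, the difference passed the threshold upward for 3 of 4 transcription factors, 1 of 3 RNA sensors, 2 of 4 OAS genes, 1 of 3 IFITM genes, 4 of 6 large GTPases, 1 of 6 restriction factors, 2 of 3 genes of the PARP9 group and 8 of the 10 other members. The 8 genes of the IFIT family and the ISG15 system did not pass it, with differences from -0.08 for ISG15 to 0.40 for IFIT5. The SNT lines differed from each other for 1 member, XAF1 (all genes, 0.174% higher and 0.264% lower), with a median of 0.09; at an unadjusted p under 0.05 they differed for 10 members upward and 1 downward. Without SNT-8 icaritin replicate 2, 24 members had a larger response in SNK-10 and 1 a smaller one, and the SNT lines differed for 3 upward and 1 downward.

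**Figure D4:**
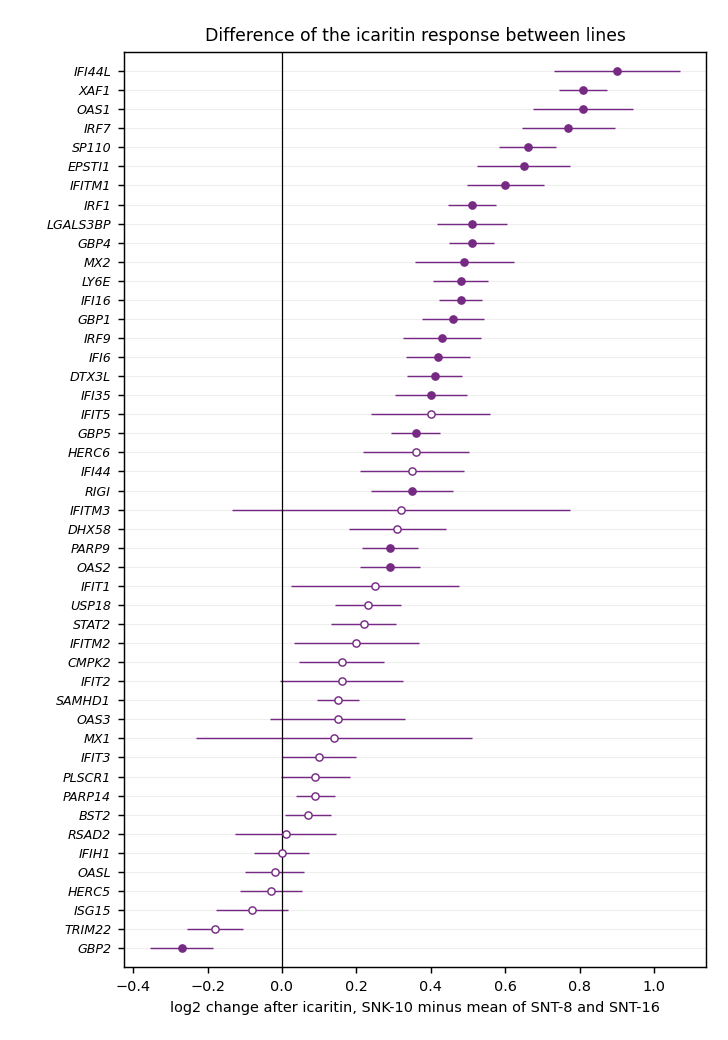
Difference of the log2 icaritin response between SNK-10 and the mean of SNT-8 and SNT-16 for the 47 interferon-stimulated genes, sorted, with bars of 1 SE; filled points passed the threshold of 0.05 on the adjusted p. Of the filled points 22 lie right of 0 and 1, GBP2, left of it.

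The smallest p-values belonged to XAF1, SP110, GBP4, IFI16, IRF1 and LY6E. XAF1 went from 96.8, 100.3 and 104 to 126, 131 and 128 CPM in SNK-10, from 94.5, 94.4 and 94.7 to 74.5, 79.4 and 84.3 in SNT-8 and from 167, 161 and 161 to 99.5, 109 and 99.5 in SNT-16. It rose in SNK-10 (0.35) and fell in the others (-0.25 and -0.67), each without overlap between treatments, and the difference of response was 0.81 (SE 0.0643, adjusted p = 9.14e-12). The fall was deeper in SNT-16 than in SNT-8, by 0.42 (SE 0.0744, adjusted p = 0.00369). SP110 went from 93.3, 87.7 and 84.2 to 55.7, 58.3 and 53.9 CPM in SNT-8 and from 84.3, 89.5 and 86.5 to 49.2, 48.7 and 52.9 in SNT-16, with 77.5, 73.6 and 73.3 and 66.5, 70.01 and 77.9 in SNK-10. So its fall was seen in the SNT lines and the SNK-10 value did not pass, with a difference of 0.66 (SE 0.0754, adjusted p = 3.32e-08). SP110 overlaps SP140 in the annotation. GBP4 rose in each line and more in SNK-10 (difference 0.51, SE 0.0602, adjusted p = 5.26e-08), GBP5 likewise (0.36, adjusted p = 0.000128), and GBP2 rose less in SNK-10 (-0.27, adjusted p = 0.0266), a call lost with DESeq2 (0.077) and without SNK-10 DMSO replicate 1 (adjusted p = 0.0821), SNK-10 DMSO replicate 2 (0.0879), SNK-10 icaritin replicate 1 (0.0836), SNK-10 icaritin replicate 2 (0.0921), SNT-16 DMSO replicate 3 (0.0617) or SNT-16 icaritin replicate 2 (0.063).

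Opposite directions, each past the threshold in its line, were found for GBP1, IFI16, IRF1, LY6E and XAF1. IFI16 went from 832, 833 and 833 to 667, 714 and 664 CPM in SNT-8, from 955, 923 and 907 to 716, 718 and 702 in SNT-16 and from 423, 403 and 414 to 455, 421 and 499 in SNK-10. In SNK-10 the DMSO and icaritin libraries overlapped, in the SNT lines they did not, and the difference of response was 0.48 (SE 0.0579, adjusted p = 7.83e-08). LY6E went from 170.1, 179 and 166 to 141, 132 and 159.6 CPM in SNT-8, from 221, 228 and 225 to 156, 184 and 169 in SNT-16 and from 142, 139 and 139 to 159, 165 and 143 in SNK-10 (difference 0.48, SE 0.0749, adjusted p = 1.64e-05). GBP1 went from 36.5, 37.1 and 38.5 to 30.3, 35.6 and 29.7 CPM in SNT-8, from 44.7, 39.96 and 39.4 to 34.01, 35.9 and 30.8 in SNT-16 and from 157, 145 and 152 to 164, 163 and 191 in SNK-10. Its changes were -0.23 in SNT-8, -0.30 in SNT-16 and 0.19 in SNK-10, and the difference of response was 0.46 (SE 0.0831, adjusted p = 0.000119). The SNK-10 rise lost its call without SNK-10 DMSO replicate 2 for GBP1 (adjusted p = 0.0541) and IFI16 (0.0505), and without SNK-10 icaritin replicate 3 for GBP1 (0.118) and IFI16 (0.129). The rise of LY6E was lost without SNK-10 DMSO replicate 1 (adjusted p = 0.0642), SNK-10 DMSO replicate 2 (0.0968), SNK-10 DMSO replicate 3 (0.087), SNK-10 icaritin replicate 1 (0.116) or SNK-10 icaritin replicate 2 (0.198) and under 8 of 28 alternatives in all, and the fall of GBP1 in SNT-8 without DMSO replicate 3 (0.074), icaritin replicate 1 (0.0869) or icaritin replicate 3 (0.1).

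**Figure D5:**
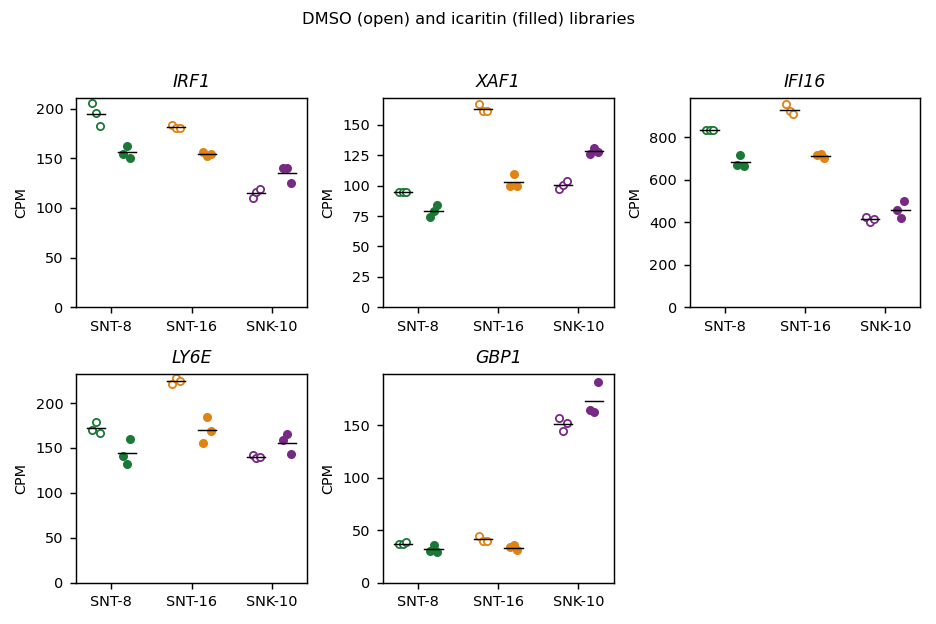
CPM per library of IRF1, XAF1, IFI16, LY6E and GBP1 in the 3 lines, with DMSO as open points, icaritin as filled points and short black bars as the group means. The icaritin mean lies below the DMSO mean in SNT-8 and SNT-16 and above it in SNK-10 for each of the 5 genes, and the SNK-10 points of IFI16 overlap between treatments.

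The largest difference of response among the members was that of IFI44L (0.90, SE 0.169, adjusted p = 0.000247), which fell in each line and less in SNK-10. OAS1 (0.81), IRF7 (0.77), EPSTI1 (0.65) and IFITM1 (0.60) followed. LGALS3BP (0.51), MX2 (0.49), IRF9 (0.43), IFI6 (0.42), DTX3L (0.41), IFI35 (0.40), RIGI (0.35), PARP9 (0.29) and OAS2 (0.29) made up the rest of the 22, with XAF1, SP110, GBP4, GBP5, IFI16, IRF1, LY6E and GBP1. The call of RIGI was lost without SNK-10 DMSO replicate 2 (adjusted p = 0.0668) or SNK-10 icaritin replicate 2 (0.118), and that of OAS2 without SNK-10 icaritin replicate 3 (adjusted p = 0.0792). Some members outside the 22 passed under single alternatives. Among them, STAT2 passed upward without SNK-10 icaritin replicate 3 (0.32, adjusted p = 0.00706) or SNK-10 DMSO replicate 2 (0.28, 0.0492). It also passed with no filter on low counts (0.24, 0.0477). In limma fits of log2(FPKM + 1) and log2(FPKM + 0.1) the calls of MX2 (0.0585 and 0.0605) and OAS2 (0.0564 and 0.0687) were lost, and that of RIGI was lost with DESeq2 (0.0511) and on the second scale (0.0704). The members with and without the response element core as searched had medians of 0.32 over 21 and 0.38 over 14 members. Of these, 8 and 9 were past the threshold upward. The 12 without a matched window had a median of 0.26, with 5 upward and 1 downward. With RNR1 and RNR2 left out, the fit gave 19 rises and 7 falls in SNK-10, 6 and 24 in SNT-8 and 7 and 29 in SNT-16, and again 22 larger and 1 smaller response in SNK-10.

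With icaritin the order of the mean levels was still SNK-10, SNT-8, SNT-16 for 27 of 47 members (57.4%, all genes 24.1%). DHX58, GBP1, GBP2, LGALS3BP, MX1, MX2, OAS3, SP110 and XAF1 now had their highest mean in SNK-10. SP110 was lowest in SNK-10 with DMSO, and with icaritin it stood at 71.5 ± 5.86 CPM (SD, n = 3) there against 55.9 ± 2.22 in SNT-8 and 50.3 ± 2.31 in SNT-16. XAF1 stood at 128 ± 2.42 CPM in SNK-10 with icaritin, above SNT-16 at 103 ± 5.71 and SNT-8 at 79.4 ± 4.89. ISG15 with icaritin stood at 28.01 ± 3.37 CPM in SNK-10, 108 ± 9.31 in SNT-8 and 272 ± 12.2 in SNT-16. Differences between lines under icaritin were not tested.

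Of 34 further interferon-stimulated genes outside the 47, 19 fell and 2 rose in SNT-8 (55.9% and 5.88%, all genes 25.0% and 24.0%), and 22 fell and 3 rose in SNT-16 (64.7% and 8.82%, all genes 20.8% and 21.2%). In SNK-10, 13 fell (38.2%, all genes 24.0%) and 8 rose (23.5%, all genes 24.4%), so here, unlike among the 47 members, falls outnumbered rises; the difference between these 2 lists was not tested. The response was larger in SNK-10 for 13 of them (38.2%, all genes 8.22%) and smaller for 1 (2.94%, all genes 5.9%). Without SNT-8 icaritin replicate 2, 19 fell and 3 rose in SNT-8, 17 fell and 8 rose in SNK-10, whose test shares the estimate of spread, and the counts of the difference of response were again 13 and 1. EIF2AK2, the gene of the kinase PKR, changed by -0.20 in SNT-8, -0.24 in SNT-16 and 0.19 in SNK-10, with a difference of 0.41 (SE 0.0684, adjusted p = 3.32e-05); its rise in SNK-10 was lost without SNK-10 icaritin replicate 3 (adjusted p = 0.0765). The tryptophanyl-tRNA synthetase WARS1 rose in each line (0.76 in SNT-8, 0.61 in SNT-16 and 0.78 in SNK-10). Of 15 sensing genes, the member IFI16 among them, 4 rose (26.7%) and 6 fell (40.0%) in SNT-8, or 5 and 5 without icaritin replicate 2. In SNT-16, 1 rose (6.67%) and 6 fell (40.0%), and in SNK-10 5 rose and 5 fell (33.3% each). IRF5 went from 191, 176 and 194 to 234, 233 and 222 CPM in SNK-10, from 80.03, 80.6 and 75.2 to 48.8, 36.5 and 54.95 in SNT-8 and from 69.6, 77.2 and 72.98 to 44.05, 49.9 and 47.2 in SNT-16. It thus rose in the line where it was already highest and fell in the others (-0.75 in SNT-8, -0.64 in SNT-16 and 0.30 in SNK-10), with a difference of 0.99 (SE 0.0983, adjusted p = 2.25e-07). The adaptor MYD88 (-0.68 in SNT-8, -0.55 in SNT-16 and -0.60 in SNK-10) and the factor IRF3 (-0.69 in SNT-8, -0.51 in SNT-16 and -0.55 in SNK-10) fell in all 3 lines, and STING1 rose in all 3 (0.61 in SNT-8, 0.53 in SNT-16 and 0.33 in SNK-10).

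Of 12 negative regulators, the member USP18 among them, 2 rose (16.7%) and 4 fell (33.3%) in SNT-8, or 2 and 3 without icaritin replicate 2. In SNT-16, 2 rose (16.7%) and 3 fell (25.0%), and in SNK-10 4 rose (33.3%) and 1 fell (8.33%). All but the last of these shares lie within about 10 percentage points of those of all genes. ADAR, which edits double-stranded RNA, went from 955, 946 and 909 to 759, 747 and 789.8 CPM in SNT-8 and from 1029, 1017 and 1027 to 779, 778 and 794 in SNT-16. In SNK-10 it had 647, 632 and 640.4 with DMSO and 678, 654 and 664 with icaritin. It fell in the SNT lines (-0.29 and -0.39), gave 0.06 in SNK-10 (adjusted p = 0.254), and differed in response by 0.40 (SE 0.049, adjusted p = 1.49e-07). IRF2, a repressor at the response element, rose in SNK-10 (0.45) with 0.09 and 0.07 in the SNT lines, a difference of 0.37 (SE 0.0688, adjusted p = 0.000147). SOCS1, which blocks JAK kinases, fell in SNT-8 (-0.35) and SNT-16 (-0.37) and gave -0.01 in SNK-10; its difference of response had an adjusted p of 0.0746.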

How the data were processed

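RNA levels were taken from 18 files, 1 per library, of 3 cell lines given DMSO or icaritin for 12 h, with line and treatment from the labels and time and replicate number from the sample titles. Per the file headers, the authors deposited for each gene an expected count, its estimated fragments with no library scaling, an FPKM, which scales that value by transcript length and by all fragments of the library, and the transcript length. RNA was extracted with Trizol and libraries were made with an MGIEasy kit, per the labels' protocols; Bowtie2 and HISAT are named in the submitters' processing notes, with no versions or roles. Genome build, annotation and counting tool: not given in the sources used here, so no coordinates of the counted genes are given. Genes that a library's file does not list were set to 0. Genes carry NCBI Gene IDs, and all 47 of 47 members matched by ID through a RefSeq table of GRCh38.p14. The promoter windows and their coordinates are from RefSeq on GRCh38.p14.

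After rounding of the expected counts to whole numbers, genes were tested with edgeR 4.0.16 in R 4.3.3 (filterByExpr with a minimum count of 10 and a minimum total of 15, TMM factors, robust quasi-likelihood fit). A single fit took in all 18 libraries as 6 group means, which left 12 residual degrees of freedom, with a common biological coefficient of variation of 4.4%. Each p is two-sided and was adjusted by Benjamini-Hochberg over the 14396 genes of each contrast, with a threshold of 0.05. Standard errors (SE) are the size of a log2 difference over the root of its F statistic, and are rough where counts are few, as for MX1 and OAS3 in the SNT lines. CPM uses the TMM factors, and a fold of 2 was the further call rule. Python 3.11.15 with pandas 2.3.3 and matplotlib 3.10.9 made the tables and figures.

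The members, the role groups and the pathway lists were chosen with earlier results of these data known, so their counts are descriptions set beside those of all genes, with no test over a list. Values in every library are given for the 10 members with the largest difference under DMSO, the 3 largest rises and falls with icaritin in each line, the 6 smallest p-values of the difference of response (each with a mean of at least 5 CPM in the groups compared), the members of opposite direction, and up to 4 genes of each pathway list. Per-library values of further members of a role group were added after their values were seen. Alternatives were DESeq2 1.42.0, other scaling factors, other filters on low counts, limma 3.58.1 on log2(FPKM + 1) and log2(FPKM + 0.1), only the groups compared, no mitochondrial transcripts, a replicate block, and each of the 18 libraries left out. Antisense and overlapping genes, such as IFIT genes with LIPA, could not be told apart. Some genes of the fixed lists are not reported here.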

Additional observations from a re-analysis of the deposited data

Results flagged for a closer look

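These results are listed because the icaritin response itself differed between lines by edgeR's test of the difference. The log2 response in SNK-10 minus the mean of the SNT lines was 0.90 for IFI44L, 0.81 for OAS1, 0.81 for XAF1, 0.77 for IRF7, 0.66 for SP110, 0.65 for EPSTI1 and 0.60 for IFITM1. It was 0.51 for IRF1, 0.51 for GBP4, 0.51 for LGALS3BP, 0.49 for MX2, 0.48 for IFI16, 0.48 for LY6E and 0.46 for GBP1. Smaller differences were 0.43 for IRF9, 0.42 for IFI6, 0.41 for DTX3L, 0.40 for IFI35, 0.36 for GBP5, 0.35 for RIGI, 0.29 for OAS2 and 0.29 for PARP9, and GBP2 was the member with a smaller response in SNK-10, at -0.27. Outside the 47 genes, the difference was 0.99 for IRF5, 0.41 for EIF2AK2, 0.40 for ADAR and 0.37 for IRF2. Between the SNT lines, the response in SNT-8 minus that in SNT-16 was 0.42 for XAF1 and -0.89 for IFNG.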

How the results depend on the processing

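Over 28 alternatives and 423 comparisons of a member, 11844 calls were recomputed. Of these, 11633 kept their side of the threshold, 155 fell short of it and 56 newly passed it. No call past the threshold in the main fit changed sign, and changes of sign among the other calls were not counted. In 51 comparisons the call changed side at least once; the most fragile were the rises of IFIT3 in SNT-8 (22 of 28 alternatives), IFI35 in SNK-10 (19) and GBP5 in SNT-16 (11). The counts of members that moved by over 1.5 times were these, and their cause was not tested. The 1 member at least 2-fold higher in SNT-8 than in SNT-16, MX1, became 0 with limma on log2(FPKM + 1), and 0 without SNT-8 DMSO replicate 1 (adjusted p = 0.0901) or SNT-16 DMSO replicate 3 (0.0775), so that both its counts ranged from 0 to 1 over the libraries left out. Members with a smaller response in SNK-10 went from 1 to 0 with DESeq2 and to 2 with limma on either FPKM scale, and ranged from 0 to 2 over the libraries left out. For the response of SNT-8 minus SNT-16, members higher went from 1 to 2 with upper-quartile factors, without mitochondrial transcripts, without a filter and with at least 1 CPM, and ranged from 1 to 3, and members lower from 0 to 1, over the libraries left out. Opposite directions went from 5 members to 3 on either FPKM scale and ranged from 2 (without SNK-10 DMSO replicate 2) to 5, with 3 without SNK-10 icaritin replicate 3. Rises in all 3 lines went from 7 to 4 without a filter, and ranged from 4 (without SNT-16 icaritin replicate 3) to 8. The replicate numbers did not pair the samples (correlations of deviations from -0.058 to 0.055); with the replicate block, 18 members rose and 7 fell in SNK-10, 6 and 24 did in SNT-8, 7 and 29 in SNT-16, 5 rose in all 3 lines, 22 had a larger and 1 a smaller response in SNK-10, and 5 had opposite directions, so that it moved no count by over 1.5 times. Over all genes, the share of higher among called differences of response moved from 58.2% to 35.9% and 34.6% on the FPKM scales, where 21 and 19 members were higher and 2 lower; for the DMSO levels of SNT-8 minus SNT-16 it moved from 55.5% to 36.0% and 36.1%, and for their responses from 39.7% to 60.2% (upper-quartile factors), 62.5% and 66.7% (FPKM) and 53.8% (no filter). The alternative without mitochondrial transcripts removed RNR1 and RNR2. Depth limits MX1, OAS3 and IFITM3 in the SNT lines, where counts per library were few.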
